A study of Drosophila melanogaster with 3 samples.

Results

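The genes described here carry proteins into and through the secretory pathway of the fly, and were measured in the larval midgut of mutants for EcR, the gene of the ecdysone receptor. They were picked by a pattern in the gene symbol, with no measured value in the pattern itself: Sec, EMC, Tango, Spase or Srp followed by a digit, SrpR, SsR, TRAM or Sar1 at the start, or COP at the end. A gene counted as a member when a probe with its symbol alone had a log2 ratio on all 3 arrays, and probes of a gene were averaged. This gave 46 members among 9756 named genes. The mutants carried the alleles EcRM554fs/EcRV559fs, which remove the function of every EcR isoform, and the transgene hs-EcR-B230.1, which heat shock induces and which had carried the animals to stage 2a, where they arrest late in the last larval stage. Each array compared RNA of the mutant midgut with 1 common reference, a mixture of midgut RNA of several stages from wild-type Canton S animals. The 3 mutant samples are independent per the labels and are called replicates 3, 4 and 6 after their titles.

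Proteins bound for the cell surface, the gut lumen or the endomembrane system enter at the endoplasmic reticulum (ER). The signal recognition particle (SRP) brings ribosomes to the membrane, the Sec61 channel admits the chain and the signal peptidase cuts its signal sequence, while the ER membrane protein complex (EMC) inserts and helps to fold membrane proteins. Vesicles with a COPII coat leave the ER, vesicles with a COPI coat return from the Golgi, and the exocyst tethers late vesicles to the plasma membrane. In the larval midgut this route carries the digestive enzymes that the epithelium releases and the transporters and receptors of its surface.

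All values below are log2 ratios after each array was centred on its median. A positive value means a higher level in the mutant, which is the likely direction only: the labels put the mutant in the 635 nm channel and the reference in the 532 nm channel, and the value table does not say which was divided by which. If it were the other way, every sign below would turn, a level of 0.493 of the reference would be one of 2.03 times it, and every place in an order of genes would count from the other end. The arrays held 14069 to 18991 probes with a value, the deposited medians were 0.0475, 0.0483 and 0.0858 on replicates 3, 4 and 6, and all arrays had the same dye orientation. The arrays hold no wild-type animals matched to stage 2a, so genotype, stage, strain background, heat shock and dye cannot be told apart in a ratio. EcR itself gave 1.72, 0.57 and 2.19 on replicates 3, 4 and 6. Its mean of 1.49 ± 0.83 (SD, n = 3; limma adjusted p = 0.0044) had an adjusted p of 0.0552 without replicate 3, and since the part of the transcript that the probe detects is not known here, it does not check the loss of function.

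The secretory genes were mostly lower in the mutant. Of the 46 members, 28 were called lower, 0 were called higher and 18 did not pass, where called means an adjusted p under 0.05 in a limma fit over all 13026 features with a value on every array. In that fit 23.7% of all features were called lower and 13.4% higher. On the values as deposited, without centring, 21.0% were lower and 23.3% higher, with 26 members lower and 2 higher. Centred on 105 probes of chemosensory receptor genes, 32.2% were lower and 7.38% higher, with 32 members lower and 0 higher. At an unadjusted p under 0.05, 31 members were lower (27.3% of all features) and 1 was higher (19.6%). A one-sample test on each gene's own variance called 0 members after adjustment, as well as 0.023% of all features lower and 0.00768% higher. At an unadjusted p under 0.05 it put 25 members lower (19.4% of all features) and 1 higher (14.1%). With an adjusted p under 0.01, 24 members were lower (17.0% of all features), and 12 were lower by at least 1.5-fold as well as called (9.5%). The median log2 ratio of the members was -0.32, against 0.0081 over all features, and 33 of the 46 were below 0 on every array, against 4395 of 13026 features. The call of a member without 1 replicate is read against 15.3% of all features called lower without replicate 3, 23.6% without replicate 4 and 20.3% without replicate 6. In RNA of a whole tissue, fewer cells of a type and less RNA per cell cannot be told apart.

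**Figure D1:**
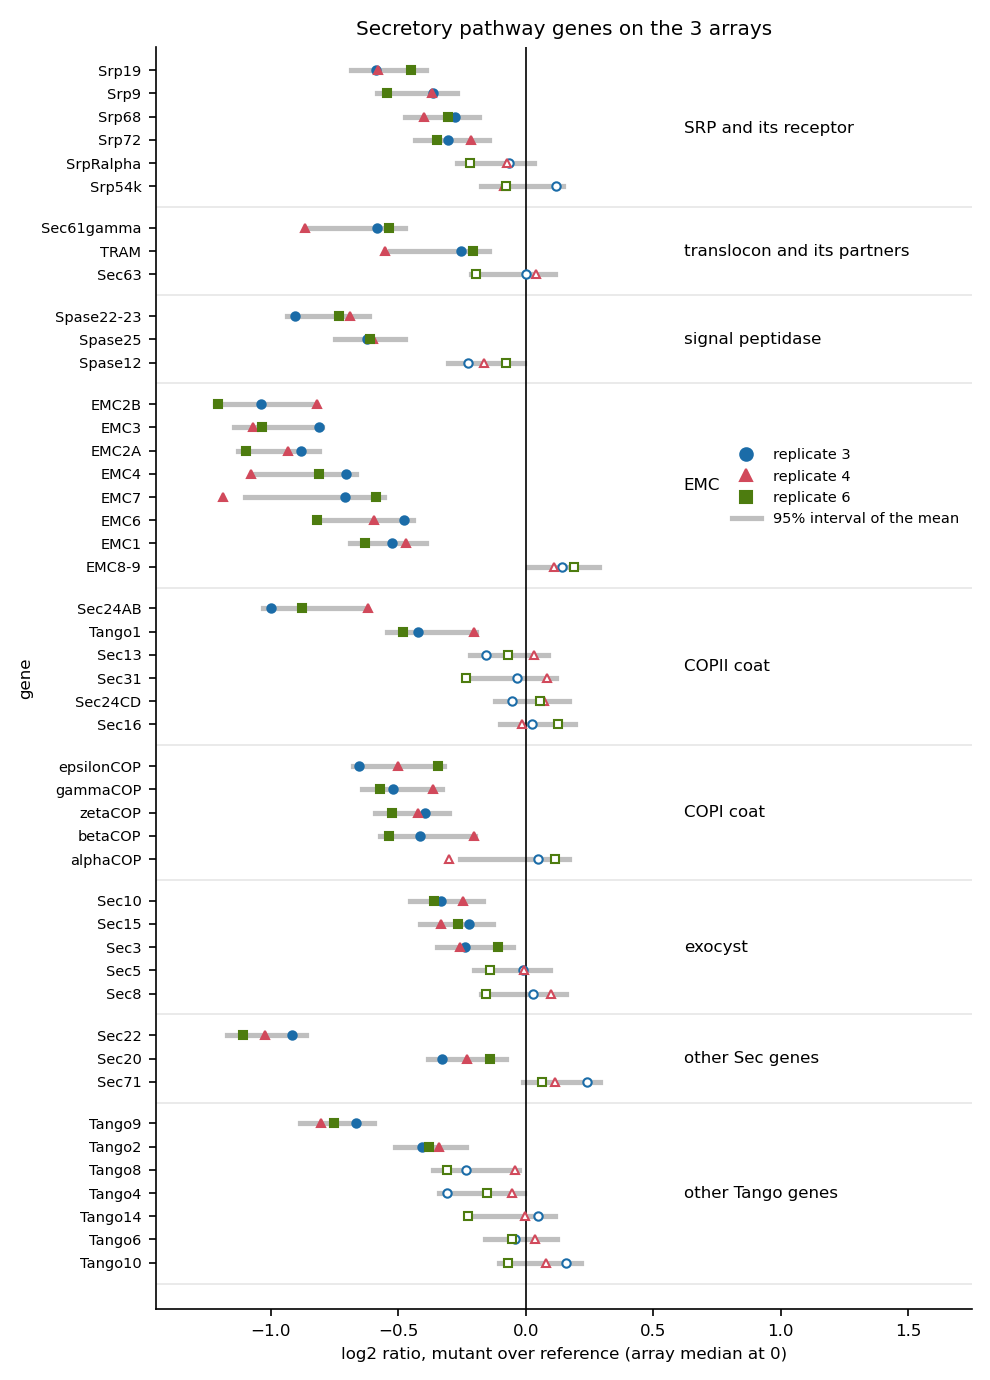
Log2 ratio of mutant over reference (x axis) for each of the 46 genes (y axis), grouped by role. Circles, triangles and squares are replicates 3, 4 and 6, filled where the gene was called lower and open where it was not called, and grey bars are 95% intervals of the mean from the limma fit. Of the 8 EMC genes 7 lie far left of 0 on every array, and EMC8-9 alone among them lies right of it.

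The roles differed in how far they were lowered. The median over the 8 EMC genes was -0.71, -0.88 and -0.81 on replicates 3, 4 and 6, and over the 12 genes of ER entry (SRP and its receptor, the translocon and its partners, and the signal peptidase) it was -0.29, -0.38 and -0.33. The 5 COPI genes had medians of -0.42, -0.36 and -0.52 and the 5 exocyst genes -0.22, -0.24 and -0.16. The 6 genes grouped with the COPII coat had medians of -0.11, 0.0092 and -0.15. Averaged over the arrays, COPII was at -0.083 by this median and at -0.18 with receptor centring. By the mean over genes in place of the median it was at -0.21, below the exocyst at -0.17, so the order of these roles depends on the measure. By the medians the order from high to low was COPII, exocyst, ER entry, COPI and EMC on replicates 3 and 6, and on replicate 4 ER entry and COPI changed places. EMC genes were called lower in 7 of 8 cases, COPI genes in 4 of 5, ER entry genes in 8 of 12, exocyst genes in 3 of 5 and COPII genes in 2 of 6, each to be read against the 23.7% of all features.

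The distance between roles does not depend on where an array's 0 is set. The EMC median lay below that of ER entry on each array, by 0.42, 0.49 and 0.49 on replicates 3, 4 and 6. Below COPI it lay by a mean of 0.36 ± 0.13 (SD, n = 3), written as -0.36 for EMC minus COPI, below the exocyst by 0.59 ± 0.093 (-0.59) and below COPII by 0.72 ± 0.15 (-0.72). The COPII median was above the COPI median by 0.35 ± 0.036. ER entry and COPI differed by 0.10 ± 0.11, which is within the spread of the arrays, and so did COPII and the exocyst at 0.12 ± 0.13. No test was made on these medians, since the roles hold few genes and the members were picked with earlier results known.

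**Figure D2:**
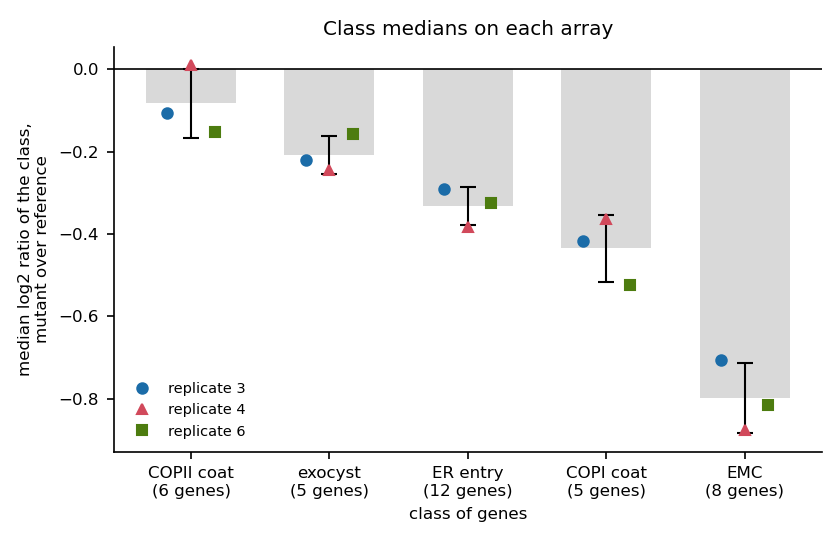
Median log2 ratio of 5 roles (x axis, with the number of genes) on each array. Bars and error bars are the mean and SD of the 3 array medians, from -0.083 for COPII to -0.80 for the EMC, and markers are the arrays.

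The EMC held 3 of the 4 lowest means of the whole set, the other being that of Sec22. In the complex as known from yeast and human cells, EMC3 and EMC6 belong to the part that inserts helices into the membrane, EMC2 and EMC8/9 lie on the cytosolic side, and EMC1 and EMC7 reach into the ER lumen. The fly has a pair of EMC2 genes, EMC2A and EMC2B. EMC2B gave -1.04, -0.82 and -1.21 on replicates 3, 4 and 6, a mean of -1.02 ± 0.19 (SD, n = 3; limma adjusted p = 1.15e-04), so that the mutant level was 0.493 of the reference. EMC2A, over 2 probes, gave -0.88, -0.93 and -1.10, a mean of -0.97 ± 0.11 (adjusted p = 5.50e-05). Both were low on every array and their values overlapped. They lie near each other in the Release 6 gene table, with 3 annotated genes between them, and whether the probes of these paralogs detect each other's RNA was not tested.

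EMC3, a membrane-inserting subunit that fly photoreceptors need to make rhodopsin, was at -0.81, -1.07 and -1.04 (mean -0.97 ± 0.14, adjusted p = 7.86e-05). EMC4 was at -0.71, -1.08 and -0.81 (mean -0.86 ± 0.19, adjusted p = 2.40e-04). EMC7, a lumenal subunit, was at -0.71, -1.19 and -0.59 and had the widest spread of all members, with a mean of -0.83 ± 0.32 (adjusted p = 0.00135). Replicate 4 was the lowest array for all 3 of these genes, and it was the highest for EMC2B and EMC1, so the arrays did not order these genes in 1 way. EMC6 was at -0.48, -0.60 and -0.82 (mean -0.63 ± 0.17, adjusted p = 8.55e-04), and EMC1, the largest lumenal subunit, at -0.53, -0.47 and -0.63 (mean -0.54 ± 0.080, adjusted p = 5.87e-04). These 7 genes were called lower without any one of the replicates.

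EMC8-9, measured by 1 probe, was the exception among the 8 EMC members. It gave 0.14, 0.11 and 0.19 on replicates 3, 4 and 6, a mean of 0.15 ± 0.039 with a 95% interval from 0.0079 to 0.29, and was not called (limma adjusted p = 0.092). On the values as deposited, which are not centred, it was called higher at 0.21 (adjusted p = 0.0306), as were 23.3% of all features. Its array values did not overlap those of any other EMC gene. On each array it was above both genes of EMC2, which is also cytosolic. It was above EMC2A by 1.02, 1.04 and 1.28 (mean 1.12 ± 0.15, n = 3). Above EMC2B it was by 1.18, 0.93 and 1.40 (mean 1.17 ± 0.23, n = 3). EMC5 had no value on replicate 3 and is not counted among the members, and its values on replicates 4 and 6 were -0.083 and -0.36. On these arrays EMC5 was also above each EMC gene that was called lower. EMC10 was not analysed here.

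At ER entry, the measured structural proteins of the SRP were lower, and the measured GTPases of the particle and its receptor were not called. Srp14 and SrpRbeta were not analysed here. In mammals Srp9 binds the part of the SRP RNA that slows translation, Srp19, Srp68 and Srp72 build the other part, and the protein encoded here by Srp54k holds the signal sequence. Srp19 gave -0.59, -0.58 and -0.45, a mean of -0.54 ± 0.076 (SD, n = 3; limma adjusted p = 5.85e-04). Srp9 gave -0.36, -0.37 and -0.55 (mean -0.43 ± 0.10, adjusted p = 0.00237), Srp68 -0.28, -0.40 and -0.30 (mean -0.33 ± 0.063, adjusted p = 0.00541) and Srp72 -0.30, -0.22 and -0.35 (mean -0.29 ± 0.068, adjusted p = 0.00961). All 4 were below 0 on every array, and Srp72 lost its call without replicate 3 (adjusted p = 0.0823). Srp54k, the GTPase of the particle, was at 0.12, -0.084 and -0.079, with a mean of -0.015 and a 95% interval from -0.18 to 0.15. SrpRalpha, a receptor GTPase at the ER membrane, was at -0.067, -0.073 and -0.22, with a mean of -0.12 and an interval from -0.27 to 0.031. It was below 0 on every array, and its interval overlapped that of Srp72, from -0.43 to -0.14. On each array Srp54k was above Srp19, by 0.70, 0.50 and 0.37. SrpRalpha was called lower when the arrays were centred on chemosensory receptor probes (-0.22, adjusted p = 0.0336), where 32.2% of all features were called lower.

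At the channel itself only 3 genes were measured, and Sec61alpha and Sec61beta were not analysed here. Sec61gamma, the small subunit that clamps the channel, gave -0.58, -0.87 and -0.54, a mean of -0.66 ± 0.18 (SD, n = 3; limma adjusted p = 7.28e-04). TRAM, a membrane protein beside the channel, gave -0.25, -0.55 and -0.21 (mean -0.34 ± 0.19, adjusted p = 0.0165), and without replicate 3 it was not called (adjusted p = 0.0724). Both were lowest on replicate 4. Sec63, the partner that recruits the lumenal chaperone BiP, was at 0.0013, 0.040 and -0.19, a mean of -0.051 with a 95% interval from -0.22 to 0.11. Its values did not overlap those of Sec61gamma. From TRAM it was not clearly apart, with -0.19 against -0.21 on replicate 6 and an interval for TRAM from -0.53 to -0.14.

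Of the 3 signal peptidase genes 2 were lower, and Spase25 had the smallest spread of all members. It gave -0.62, -0.60 and -0.61, a mean of -0.61 ± 0.011 (SD, n = 3; limma adjusted p = 2.24e-04), and Spase22-23 gave -0.90, -0.69 and -0.73, a mean of -0.78 ± 0.11 (adjusted p = 1.53e-04). Both are subunits that do not carry the catalytic site. Spase12, another such subunit, was nearer to 0 at -0.23, -0.16 and -0.076, a mean of -0.16 (95% interval -0.30 to -0.0084) that was not called (adjusted p = 0.0919), although it was called on receptor centring (-0.26, adjusted p = 0.016). It was above Spase25 on each array, by 0.39, 0.44 and 0.54. The catalytic subunit is encoded by twr, whose symbol lies outside the rule and which was looked up after the other values were seen. It gave -0.38, -0.68 and -0.70 (mean -0.58 ± 0.18, n = 3), the adjusted p of its probe on its own being 0.00138.

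Among genes of COPII carriers, the cargo-selecting subunits were split in their values averaged over probes. Sec24AB and Sec24CD encode alternative forms of the subunit that binds cargo. Sec24AB gave -1.0, -0.62 and -0.88 on replicates 3, 4 and 6, a mean of -0.83 ± 0.19 (SD, n = 3; limma adjusted p = 2.94e-04). Sec24CD, averaged over 4 probes, gave -0.055, 0.073 and 0.054, with a mean of 0.024 and a 95% interval from -0.12 to 0.17. These averaged values did not overlap, and Sec24CD was above Sec24AB by 0.94, 0.69 and 0.93 on the arrays. The lowest Sec24CD probe, however, was itself called lower and the highest was called higher, as described below. Tango1, which loads bulky cargo such as collagen at ER exit sites, was called lower at -0.42, -0.20 and -0.48 (mean -0.37 ± 0.15, adjusted p = 0.00722), but not without replicate 3 (adjusted p = 0.0755).

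The other COPII genes were close to the reference. Sec13 and Sec31 form the outer cage, and Sec13 is also part of the nuclear pore. Sec13 gave -0.16, 0.033 and -0.071 with a 95% interval of its mean from -0.22 to 0.089, and Sec31 gave -0.035, 0.082 and -0.23 with an interval from -0.24 to 0.12. Sec16, the scaffold of ER exit sites, gave 0.023, -0.015 and 0.13 with an interval from -0.10 to 0.19. Each of these 3 genes had arrays on both sides of 0, and the intervals together run from -0.24 to 0.19. Sec23 and Sar1, the inner coat partner of Sec24 and the GTPase that starts the coat, were not analysed here.

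The average of Sec24CD covers probes that disagree. With each probe tested on its own, 3335 of 13921 probes were called lower and 1839 higher. Of the Sec24CD probes, the lowest probe gave -0.44, -0.30 and -0.55 on replicates 3, 4 and 6 and was called lower (mean -0.43, limma adjusted p = 0.00308). The highest gave 0.28, 0.36 and 0.32 and was called higher (mean 0.32, adjusted p = 0.00568), and the remaining probes, with means of 0.087 and 0.12, were not called. Sec24CD was therefore 1 of 9 genes with probes called in opposite directions, among 769 named genes with more than 1 probe. The range between its probe means was 0.75, larger than in 97.3% of those genes, whose median range was 0.108. Those genes were not matched to the 4 probes of Sec24CD. A range, and the chance of opposite calls, grow with the number of probes, so the 97.3% may overstate how unusual it is. The probes of EMC2A differed by 0.021 in their means and those of betaCOP by 0.026. On single arrays the EMC2A probes were further apart, at -1.08 and -0.78 on replicate 4 and at -1.0 and -1.19 on replicate 6. Which transcripts each probe detects is not given in the sources used here, so the mean near 0 for Sec24CD is not a statement about any single transcript.

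**Figure D3:**
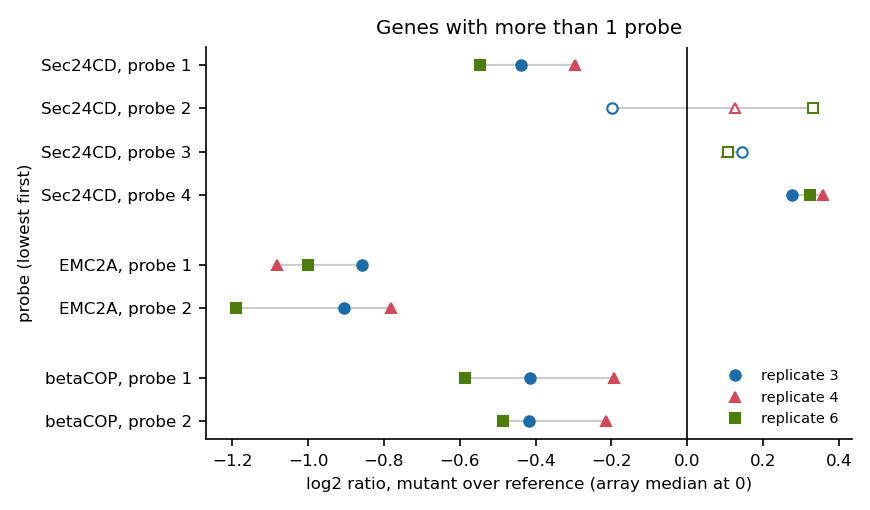
Log2 ratio (x axis) of each probe of the 3 genes with more than 1 probe (y axis, probes ordered by mean). Markers are the arrays, filled where the probe on its own was called. The probes of Sec24CD run from -0.43 to 0.32 in their means, while the means of the probe pairs of EMC2A and betaCOP are 0.021 and 0.026 apart.

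COPI, the coat of vesicles that return from the Golgi to the ER, was lower in 4 of its 5 measured subunits. Beta, gamma and zeta belong to the layer next to the membrane, and alpha and epsilon to the outer one. From the outer layer, epsilonCOP gave -0.65, -0.50 and -0.35, a mean of -0.50 ± 0.15 (SD, n = 3; limma adjusted p = 0.00199). From the membrane layer, gammaCOP gave -0.52, -0.36 and -0.57 (mean -0.48 ± 0.11, adjusted p = 0.00132), zetaCOP -0.39, -0.42 and -0.52 (mean -0.45 ± 0.068, adjusted p = 0.00132) and betaCOP -0.42, -0.20 and -0.54 (mean -0.39 ± 0.17, adjusted p = 0.00778). These 4 lay close together, between 0.707 and 0.766 of the reference, and betaCOP lost its call without replicate 3 (adjusted p = 0.075). The outer subunit alphaCOP was at 0.049, -0.30 and 0.11, so that replicate 4 stood apart from the others, and its mean of -0.046 had a 95% interval from -0.26 to 0.17. It was above epsilonCOP, the COPI gene with the lowest mean, on each array, by 0.70, 0.20 and 0.46. On replicate 4 alphaCOP lay below betaCOP, at -0.30 against -0.20. deltaCOP had only probes that also carry another gene's symbol, and beta'COP was not analysed here.

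The exocyst, which holds secretory vesicles at the plasma membrane before fusion, had small ratios. Sec10 gave -0.33, -0.24 and -0.36, a mean of -0.31 ± 0.060 (SD, n = 3; limma adjusted p = 0.00651). Sec15, the subunit that binds Rab11, gave -0.22, -0.33 and -0.26 (mean -0.27 ± 0.055, adjusted p = 0.0113), and Sec3 gave -0.24, -0.26 and -0.11 (mean -0.20 ± 0.081, adjusted p = 0.0436). Without replicate 3 none of the 3 was called, with adjusted p of 0.0662 for Sec10, 0.0632 for Sec15 and 0.221 for Sec3, and 15.3% of all features were called lower then. Sec3 was also not called without replicate 4 (adjusted p = 0.118) or on the values as deposited (adjusted p = 0.124), where 21.0% of all features were lower. Sec5 was at -0.011, -0.0067 and -0.14, with a 95% interval of its mean from -0.20 to 0.095, and Sec8 at 0.029, 0.10 and -0.16, with an interval from -0.18 to 0.16. On each array Sec5 was above Sec10, the exocyst gene with the lowest mean, by 0.32, 0.24 and 0.22. On replicate 6 Sec5 lay below Sec3, at -0.14 against -0.11. Sec6 was not analysed here, and Exo84, the 1 tested subunit outside the symbol rule, was not called at -0.069 (adjusted p = 0.489).

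Of the remaining Sec genes, Sec22 had one of the lowest ratios of the set. Sec22 is the SNARE that vesicles between ER and Golgi use to fuse. It gave -0.92, -1.02 and -1.11 on replicates 3, 4 and 6, a mean of -1.02 ± 0.096 (SD, n = 3; limma adjusted p = 3.90e-05), or 0.495 of the reference, and 4.18% of named genes had a lower mean. A further 4 probes list Sec22 together with other genes and were left out. Sec20, a SNARE of the ER membrane that receives returning vesicles, was much closer to 0 at -0.33, -0.23 and -0.14 (mean -0.23 ± 0.093, adjusted p = 0.0282). Its call was lost without replicate 3 (adjusted p = 0.195), without replicate 4 (adjusted p = 0.0638) and on the values as deposited (adjusted p = 0.0761). Sec71 encodes a guanine nucleotide exchange factor that activates Arf at the Golgi. It gave 0.24, 0.11 and 0.066, a mean of 0.14 with a 95% interval from -0.012 to 0.29, and was called higher only on the values as deposited (0.20, adjusted p = 0.0378).

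The Tango genes were named after a screen in cultured fly cells for genes needed for secretion and Golgi shape, and they share no single biochemical role. Besides Tango1, 7 were measured and 2 of them were called lower, a share of 28.6% that is near the 23.7% of all features. Tango9 gave -0.66, -0.80 and -0.75, a mean of -0.74 ± 0.070 (SD, n = 3; limma adjusted p = 1.24e-04), and Tango2 gave -0.41, -0.34 and -0.38 (mean -0.37 ± 0.035, adjusted p = 0.00242). Both were lower on every array with little spread. The others had means from -0.19 for Tango8 to 0.055 for Tango10. Tango8 was below 0 on all arrays at -0.23, -0.044 and -0.31 (adjusted p = 0.0731) and was called without replicate 4 (-0.27, adjusted p = 0.028) and on receptor centring. Tango4, whose human counterpart is a splicing protein, was at -0.31, -0.055 and -0.15 (adjusted p = 0.0979) and was called on receptor centring alone.

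In the likely direction, most members lay in the lower part of the range of all named genes. For EMC2B 4.13% of the 9756 named genes had a lower mean, for EMC3 4.58%, for Sec24AB 6.14%, for Spase22-23 6.97% and for Tango9 7.48%. The COPI genes that were called lay between 12.4% and 16.2%, and those of the exocyst between 19.6% and 26.3%. EMC8-9, at 79.0%, and Sec71, at 77.8%, were the members highest in the list. Over all members the spread between arrays was ordinary, with a median SD of 0.106, against 0.104 among all features. By role the median SD ran from 0.0763 for the signal peptidase to 0.179 for the translocon and its partners. It was 0.157 for the EMC and 0.154 for COPI.

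**Figure D4:**
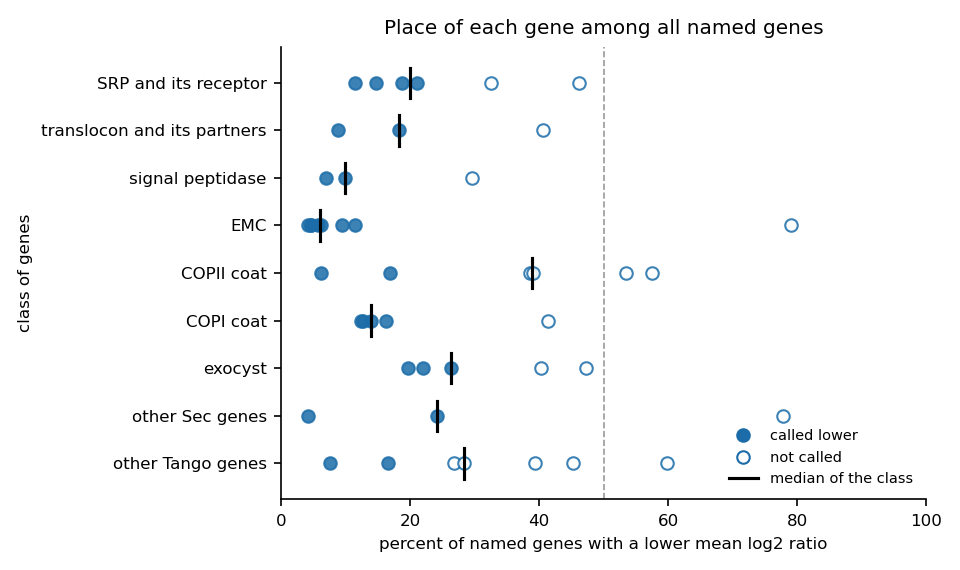
Place of each gene among the 9756 named genes (x axis, percent of named genes with a lower mean log2 ratio) by role (y axis). Filled points were called lower, open points were not called, and black bars are the medians of the roles. The EMC points crowd at the left edge, from 4.13% to 11.4%, except EMC8-9 at 79.0%.

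Genes of the same route outside the symbol rule were also mostly lower. In 10 lists of such genes 72 were tested, of which 48 were called lower, 2 higher and 22 not, against the same 23.7% and 13.4% of all features, and their median was -0.30. The oligosaccharyltransferase adds sugar chains beside the translocon, and not all of its subunits were tested. Its 4 tested genes were all lower, led by Ostgamma at -0.70 ± 0.076 and OstDelta at -0.67 ± 0.099 (SD, n = 3). Of 11 ER chaperones and folding enzymes, 10 were lower, with a median of -0.60. The lowest of these were prtp, which encodes a protein with thioredoxin domains, at -1.65 ± 0.029 (limma adjusted p = 6.29e-06) and ERp60, a protein disulfide isomerase, at -1.12 ± 0.062 (adjusted p = 2.09e-05).

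Between ER and Golgi, 4 of 5 p24 and cargo receptor genes were lower, led by cni at -0.49 and Surf4 at -0.43. Of 10 ER-Golgi SNARE and tether genes 8 were lower, led by the SNARE gene Gos28 at -0.70 and Trs31, a subunit of the TRAPP tether, at -0.61. Golgi structure and COG genes were lower in 8 of 15 cases, led by Cog1 at -0.54 and Grasp65 at -0.47. Of 3 tested genes in the list of Arf proteins and regulators 2 were lower, ArfGAP1 at -0.82, which turns Arf off when COPI vesicles uncoat, and dnd at -0.60. The Arf genes of that list, Arf79F, Arf51F and Arf102F, were not tested. None of these 4 lists held a gene called higher.

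Both genes called higher were in the lists of Rab genes and stress regulators. Of 10 Rab genes 5 were lower, with Rab18 at -1.22 ± 0.15 and Rab2, a Rab of ER-Golgi traffic, at -1.19 ± 0.15 (SD, n = 3) lowest, and RabX1, named after its values were seen, was higher at 0.63 ± 0.048. Of 4 further SNARE genes, in a list named for the plasma membrane and exocytosis, 2 were lower, Snap29 at -1.47 ± 0.14 and Syb at -0.67 ± 0.037. Where in the cell each of them acts was not examined, so the list does not stand for fusion at the plasma membrane alone. Among 9 genes of the unfolded protein response and of ER-associated degradation, 5 were lower, led by BI-1 at -1.08 ± 0.078 and Der-1, a channel component of ER-associated degradation, at -1.02 ± 0.13. Herp, which acts in the same degradation pathway and was named after its values were seen, was higher at 0.92 ± 0.11 (limma adjusted p = 6.78e-05). PEK, crc and Atf6, regulators of the unfolded protein response named after their values were seen, were not called at -0.082, -0.084 and -0.18, and CrebA and Xbp1 were not analysed here.

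**Figure D5:**
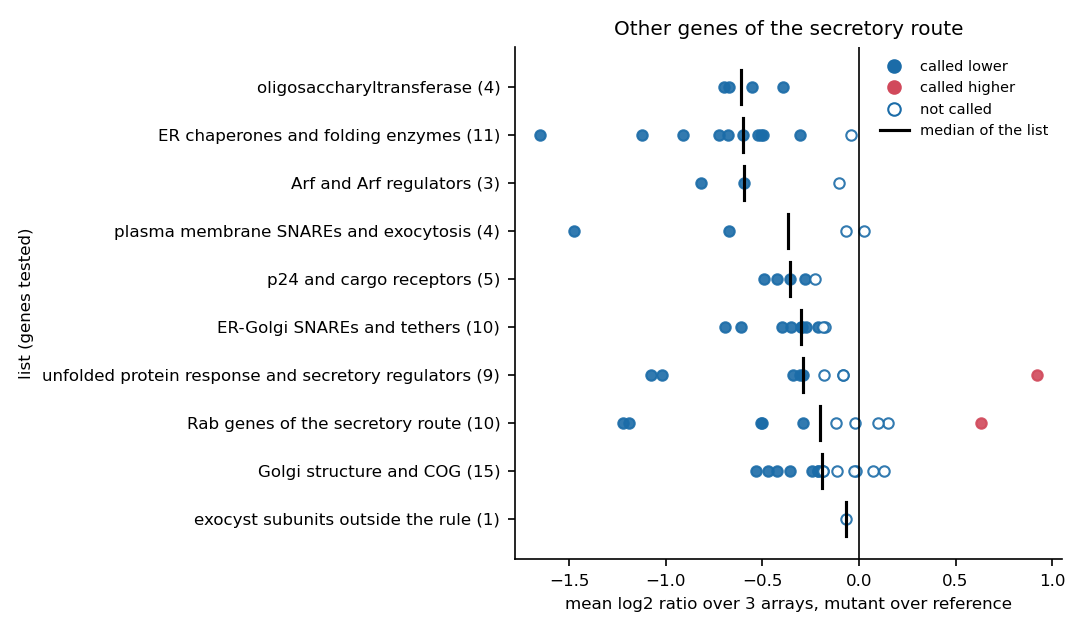
Mean log2 ratio over the 3 arrays (x axis) of 72 other secretory genes, by list (y axis, with the number tested). Blue points were called lower, red points higher and open points not called, and black bars are list medians. The 2 red points are Herp at 0.92 and RabX1 at 0.63.

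Marker genes of the tissue and its neighbours gave the following ratios, and no levels, so the labelled tissue could not be checked by them. Of 19 digestive enzyme genes of the midgut epithelium 16 were called higher and 1 lower, with a median of 1.17 and a range from -0.46 to 3.79, where 13.4% of all features were higher and 23.7% lower. Of 5 trachea and cuticle genes 4 were lower (median -0.75), of 4 fat body genes 3 (median -0.69), of 7 Malpighian tubule and hindgut genes 4 (median -0.23) and of 11 hemocyte genes 3, with 1 higher (median -0.065), so that the hemocyte share of 27.3% was near that of all features. Of 8 visceral muscle genes 3 were higher and 1 lower (median 0.16), and of 4 salivary gland genes 2 were higher (median 0.22). The part of these cell types in the ratios of the secretory genes was not tested.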

How the data were processed

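RNA from the midgut of EcR mutants was amplified by in vitro transcription and hybridised with the reference on 3 arrays, per the labels' protocols. The deposited values are log2 ratios, 1 per probe and array, for 20000 probes. How the authors scanned, background-corrected and filtered spots is not given in the sources used here, so dim or saturated spots could not be left out. The platform annotation gave 1 symbol to 10828 probes, several to 227 and none to 8945. Of the single-symbol probes 10824 matched the Release 6 plus ISO1 MT gene table by gene ID, and 0 symbols needed updating.

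The rule fits 61 genes of that table, of which 46 were members. A further 13 had no probe named for them (among them Srp54, which encodes a splicing factor), 1 lacked a value on an array and 1 had only probes with several symbols. After centring and averaging, 13026 features (9756 named genes and 3270 unnamed probes) were tested. The fit was limma 3.58.1 (lmFit, eBayes) under R 4.3.3, with 6.89 degrees of freedom, a two-sided p and Benjamini-Hochberg adjustment over all features. The reference enters as 1 control sample, so its own spread is left out, and the number of arrays limits the precision. On simulated data with 200 of 13026 features changed, 100% were recovered at log2 sizes of 0.5, 1 and 2, with 22 false calls. The simulated noise was independent and normal, with variances taken from the fit itself. Far fewer features were changed than the 37.0% called in the data. The simulation therefore cannot show how dye, reference or spot filtering affect the calls.

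The members and lists were chosen with earlier results of these data known. Any member could be named, and in each list of other genes up to 2 called genes with the largest ratio and 1 sign on all arrays. Settings tried were uncentred values, other centrings (105 chemosensory receptor probes among them), quantile normalization, equal spread, single probes, features with 2 or more arrays, robust eBayes, a one-sample test per gene, leave-one-out fits, and stricter limits on p (0.01) and fold (1.5). A planned motif search in promoters was not made, because no sequence was used here.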

Additional observations from a re-analysis of the deposited data

How the results depend on the processing

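No paired analysis was possible because the study has 1 group. With 3 arrays, 1 dye orientation and unknown signal over background, counts rest on the variance shared between features: the plain one-sample test called 0 members, 0 of the other secretory genes in either direction and 0 genes of each role. A change of at least 1.5-fold left 12 members lower (background 9.5%), 3 at ER entry, 1 in COPII, 0 in COPI and 0 in the exocyst, and 18 other secretory genes. At an adjusted p under 0.01 the exocyst kept 1 (background 17.0%). On the values as deposited 2 members and 4 other genes were higher (background 23.3%). With single probes 1 member probe, of Sec24CD, was higher (background 13.2%). Leaving out a replicate gave 1 to 2 lower COPII genes, 0 to 3 lower exocyst genes and 20 to 28 lower members. In those fits 15.3% to 23.6% of all features were lower.

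Receptor centring moved the medians of ER entry, EMC, COPII, COPI and exocyst to -0.43, -0.90, -0.18, -0.53 and -0.31, and the values as deposited moved ER entry to -0.27 and the exocyst to -0.15. Receptor centring lowers every gene of an array by the same 0.0884 to 0.107. With means in place of medians the EMC was at -0.71, COPII at -0.21 and the exocyst at -0.17, which turns the order of the last pair. The 20 turns of sign among the settings fell on 11 members that were not called. As deposited, Sec5 was 0.0073, Sec63 0.0096, Sec8 0.051, Srp54k 0.046, Tango14 3.5e-04, Tango6 0.041 and alphaCOP 0.015. On receptor centring, Sec16 was -0.055, Sec24CD -0.076 and Tango10 -0.044. Sec8 was 0.0012 with equal spread and 0.0026 with quantile normalization. Leaving out replicates gave -0.00032 to 0.064 for Sec24CD, -0.13 to 0.023 for Sec31, -0.096 to 0.021 for Sec63, -0.064 to 0.064 for Sec8, -0.081 to 0.020 for Srp54k, -0.11 to 0.024 for Tango14 and -0.13 to 0.081 for alphaCOP. Of the 28 members called lower, 20 were called in every scaling, feature, robust and leave-one-out setting. The cause of these changes was not tested.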
